A study of Rattus norvegicus with 71 samples.

Results

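The comparison described here sets the lungs of Brown Norway rat pups against those of Lewis pups on postnatal day 1 (PN1), both after saline exposure in utero. The arrays were chosen by their labels for strain, age and exposure, which gave 4 Brown Norway and 4 Lewis arrays, 8 of the 71 arrays of the series. Each array measured total RNA from the whole lung of an inbred rat on an Illumina bead array of 22523 probes. The whole series has 3 strains, Brown Norway, Fisher and Lewis, each taken at PN1, PN7 and PN14 after ovalbumin, an egg protein, or saline in utero, with 4 arrays in each of the 18 groups except Fisher PN7 saline. The Brown Norway and Lewis saline arrays of PN7 and PN14 told day 1 differences from those present at every age, and the PN1 ovalbumin arrays of both strains gave a second set of pups of the same age. The labels give no litter, sex or animal number, so the p-values measure the spread between these samples, which may be technical.

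Brown Norway and Lewis are inbred strains that carry different alleles of the major histocompatibility complex (MHC), the cluster of antigen-presenting genes that is called RT1 in the rat. Brown Norway rats are widely used as a model of allergic airway responses because they mount strong IgE responses. On the first day after birth the rat lung is still without true alveoli: it clears fetal liquid, secretes surfactant and builds the elastic and collagen fibres along which the alveolar walls later grow. Glucocorticoid hormone, which surges around birth, drives much of this maturation, and the circadian clock, a loop of transcription factors that repress their own expression, responds to that hormone.

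Values are log2 signals after background correction and quantile normalisation, and each difference is Brown Norway minus Lewis on that scale, with its standard error (SE). Between 10733 and 12437 probes were above background on each of the 8 arrays, and the median raw signal lay between 121.5 and 159.1 units. Replicates a and b of each strain were on a first slide and replicates c and d on a second. Array to array correlations ran between 0.9806 and 0.9929 within Brown Norway, between 0.9726 and 0.9936 within Lewis, and between 0.9491 and 0.972 across the strains. Lewis replicate c stood apart from its group: the median of the heart and skeletal muscle list was 3.58 above the mean of the 8 arrays there, against -0.75 to -0.21 on the other Lewis arrays and -0.63 to 0.52 on the Brown Norway arrays. Brown Norway replicate b was the next farthest from its group mean. No gene of that list passed the test between the strains, and results that move without these 2 arrays are given both ways.

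The defining transcripts of lung epithelium were present in both strains. Sftpc, the surfactant protein C of alveolar type 2 cells, averaged 14.63 ± 0.14 in Brown Norway and 14.89 ± 0.10 in Lewis (SD, n = 4 each), a difference of -0.26 (SE 0.12) with adjusted p = 0.0936. Scgb1a1, the club cell secretory protein, averaged 15.48 ± 0.16 in Brown Norway and 15.46 ± 0.12 in Lewis, and Sftpb, Ager and Eln did not pass the test either. Of 12 alveolar type 2 genes, 1 was higher and 2 were lower in Brown Norway at PN1. Over all 9642 genes tested, 14.6% were higher and 13.9% lower, so this list did not stand out. Sftpa1, the surfactant protein A gene, was higher by 0.42 (SE 0.13, adjusted p = 0.0109) and was lower at PN7, by -0.62. Slc34a2, a phosphate transporter, was lower by -0.70 (adjusted p = 0.00148) and Lamp3, of lamellar body membranes, by -0.40 (adjusted p = 0.0461). The liver gene Alb, the fat gene Adipoq and the thymus gene Rag1 were above background on no Brown Norway array and on at most 1 Lewis array, while the heart muscle genes Myh6 and Myl7 were above background on all 8 arrays without passing the test between strains. In bulk lung, fewer cells of a type and less RNA per cell cannot be told apart.

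The strains differed widely at day 1. Of the 14019 probes detected on at least 3 arrays of the series, 3726 (26.6%) passed an adjusted p under 0.05 at PN1, with 1844 higher and 1882 lower in Brown Norway. Fewer probes passed at the later days, 2327 (16.6%) at PN7 and 793 (5.66%) at PN14. The PN7 count was 1353 without Brown Norway PN7 replicate b and 1526 with only the groups compared in the fit. The change with age was then tested itself, as the PN1 difference minus the mean of the PN7 and PN14 differences, and 2200 probes (15.7%) passed. Without Brown Norway replicate c that last count was 1433.

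Sorting the PN1 differences by age gave 2 main classes. A first class of 379 probes (2.7%) differed the same way at all 3 ages, 216 of them higher in Brown Norway and the rest lower. A second class of 1649 probes (11.8%) differed at PN1 and by more, in the PN1 direction, than the mean of the later differences, 821 higher and 828 lower, while the other 1698 PN1 probes could be put in neither class. This second class is called larger at day 1, although a difference the other way at a later age may be greater in size, and it held 655 probes when PN1 was tested against PN7 and PN14 separately. Without Brown Norway replicate c it held 1055 probes, and without Lewis c and Brown Norway b it held 1484 and the first 347. The classes differed in size as well: the median absolute PN1 difference was 1.10 for the differences of every day, with 54.4% of them at least 1, and 0.72 for those larger at day 1, with 24.1% at least 1. In the direction of the PN1 difference, the probes larger at day 1 had median differences of -0.13 at PN7 and -0.01 at PN14, values that the way they were chosen pushes away from the PN1 direction.

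**Figure D1:**
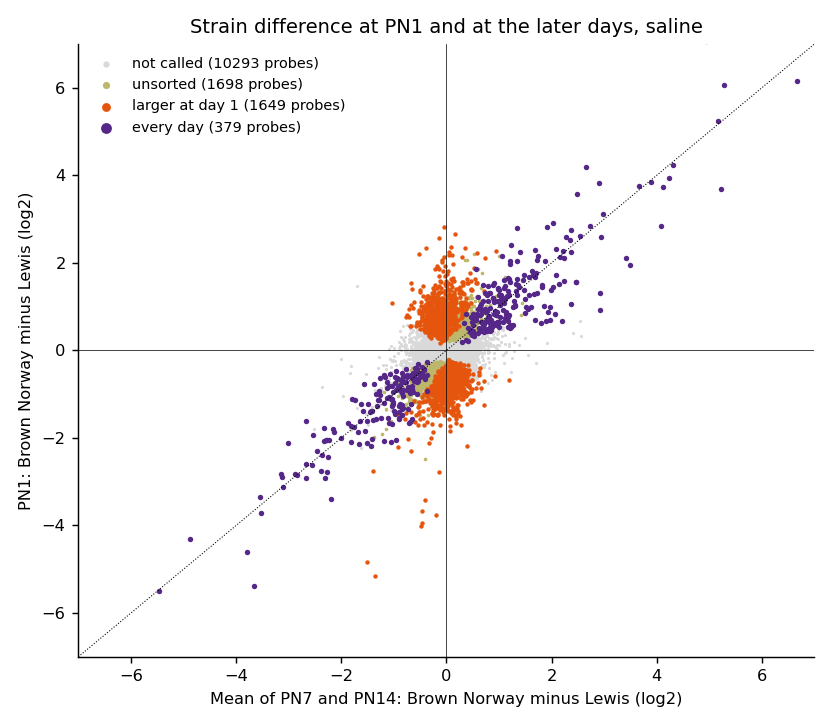
Each point is 1 probe; the vertical axis is the Brown Norway minus Lewis difference at PN1 and the horizontal axis the mean of the PN7 and PN14 differences, both log2, with the dotted line marking equal values. The 379 probes called at every day run along the dotted line, and the 1649 larger at day 1 stand above and below the centre, where the later difference is near 0.

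The PN1 ovalbumin pups were then compared in the same way. Their group means had no part in sorting the probes. Their arrays did enter the detection filter, the normalization and the pooled spread behind the p-values, so this comparison is not fully independent of the sorting. Over all probes, 1022 (7.29%) passed between Brown Norway and Lewis ovalbumin pups. Of the 379 probes of every day, 331 (87.3%) passed the same way in the ovalbumin pups and 377 had the same sign. Of the 1649 probes larger at day 1, 89 (5.4%) passed the same way, 38 passed the other way, and 811 (49.2%) had the same sign. The differences of every day thus mostly passed again in other PN1 pups, and those larger at day 1 mostly did not. The saline difference minus the ovalbumin difference passed for 905 probes (54.9%) of the second class and 36 (9.5%) of the first, a count that reuses the saline arrays by which the classes were formed. On 1258 of the 1649 probes (76.3%) the Brown Norway ovalbumin mean lay nearer to Lewis saline than to Brown Norway saline, against 53.1% over all probes tested. The Lewis ovalbumin mean lay nearer to Brown Norway saline on 246 of them (14.9%), against 36.6% over all probes. In the third strain, the Fisher PN1 saline mean was nearer to Lewis than to Brown Norway on 1168 (70.8%), against 57.7% over all probes. The Fisher share was also raised for the probes of every day (63.1%) and for those in neither class (65.3%). All 3 of these means, Brown Norway ovalbumin, Lewis ovalbumin and Fisher saline, were nearer to Lewis saline on 997 of the 1649 probes (60.5%), against 37% over all probes. All 3 were nearer to Brown Norway saline on 130 (7.88%), against 21.7% over all probes. All these counts of nearness use the same saline means by which the classes were formed. The probes larger at day 1 were chosen for a gap between those means, and most of all probes were not. The shares over all probes are therefore no matched baseline, and how far the choice itself moves the shares was not tested.

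Among the 9642 named genes, 1406 (14.6%) were higher and 1337 (13.9%) lower in Brown Norway at PN1. The class larger at day 1 held 669 higher genes (6.94%) and 617 lower genes (6.4%), and the class of every day held 138 higher genes (1.43%), with 1.07% of genes lower. These shares are the background against which each gene list below is read. For counts within 1 slide, the background is the probes that passed there in either direction. Of the 14019 probes tested, these numbered 739 within the first slide and 4005 within the second, so fewer genes of any list can pass within the first. The lists and their members were chosen with earlier results of these data known, so a count above these shares is no independent support. Genes whose arrays are said below not to overlap had passed at PN1, so that lack of overlap adds no support either.

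Glucocorticoid-responsive genes were higher in the Brown Norway lungs at day 1. Of 16 measured, 12 were higher and 1 lower, and 8 were in the class larger at day 1. The median difference over the list was 1.02 at PN1, -0.07 at PN7 and -0.04 at PN14, against 0.01, 0.00 and -0.01 over all genes. Those values are of saline pups. Between the ovalbumin pups of PN1, 2 of the 16 were higher and 0 lower, with a list median of -0.03. Klf9, a transcription factor gene switched on by the glucocorticoid receptor, read 13.33, 12.46, 13.72 and 13.52 on Brown Norway arrays a to d, against 11.83, 11.56, 11.64 and 11.24 on Lewis arrays. The groups did not overlap, Brown Norway b was the lowest of its group, and the difference was 1.69 (SE 0.31, adjusted p = 2.29e-05). At PN7 and PN14 Klf9 differed by -0.40 and 0.11, and the test of PN1 against the later days gave adjusted p = 0.000453. Tsc22d3, which encodes the anti-inflammatory leucine zipper GILZ, read 13.38, 12.51, 13.24 and 13.12 in Brown Norway and 11.96, 11.74, 12.05 and 11.47 in Lewis, again without overlap, for a difference of 1.26 (SE 0.24, adjusted p = 3.13e-05). Ddit4, an inhibitor of the mTORC1 growth pathway, read 11.61, 11.85, 12.32 and 12.18 in Brown Norway and 10.28, 9.71, 10.68 and 10.32 in Lewis. All 4 Brown Norway values were above all Lewis values, and the difference was 1.74 (SE 0.41, adjusted p = 0.000789).

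The other glucocorticoid genes that were higher were Nfkbia, the inhibitor of NF-kappaB (0.80), Errfi1, a brake on the EGF receptor (1.10), Dusp1, a phosphatase of stress kinases (0.95), Zbtb16 (1.39), Sult1a1, Pdk4, Cdkn1a, Per1 and Fkbp5. Angptl4, a secreted inhibitor of lipoprotein lipase, was lower by -0.94. Fkbp5, the co-chaperone of the glucocorticoid receptor, lay outside the rule by which genes were picked and was added after its values were seen. It read 13.14, 11.69, 12.62 and 12.49 in Brown Norway and 11.29, 10.87, 12.05 and 11 in Lewis. Lewis c overlapped the Brown Norway range, and the difference of 1.18 (SE 0.39, adjusted p = 0.0174) did not pass without Lewis b, Lewis d or Brown Norway a, where adjusted p was 0.0617, 0.0543 and 0.0800. Sgk1, Mt1 and Cdkn1c did not pass, at -0.06, 0.11 and -0.12. The list's count was 12 without Lewis c and Brown Norway b, 8 without Lewis b or without Brown Norway a, and 9 without Lewis d; within the first slide the median was 0.92 with 1 gene passing, and within the second 1.09 with 9 passing.

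Clock genes moved the same way. Of 12 measured, 6 were higher (Bmal1, Cry1, Nfil3, Tef, Cry2 and Per1) and 1 lower (Dbp), with list medians of 0.72 at PN1, -0.09 at PN7 and -0.07 at PN14. Between the ovalbumin pups of PN1, 0 of the 12 were higher and 1 lower, with a list median of 0.06. Bmal1, the positive arm of the loop, read 8.15, 8.16, 8.54 and 8.15 in Brown Norway and 6.84, 6.86, 7.12 and 6.96 in Lewis. The groups were well apart, and the difference was 1.31 (SE 0.18, adjusted p = 4e-08), against -0.04 at PN7 and 0.61 at PN14. The Bmal1 difference was thus larger at PN1 but not confined to it. Over the whole list, 1 gene passed as higher and 1 as lower at PN14. Cry1, a repressor of that loop, read 11.05, 10.92, 11.09 and 11.29 in Brown Norway and 10.26, 10.34, 10.36 and 10.41 in Lewis. Its difference was 0.74 (SE 0.11, adjusted p = 6.53e-07), with no overlap. Nfil3, a repressor of the D-box output genes, was higher by 1.32 (SE 0.22, adjusted p = 5.61e-06), and Tef, an activator of the same outputs, by 1.01 (SE 0.26, adjusted p = 0.00242). Per1, named after its values were seen, was higher by 1.35 (SE 0.40, adjusted p = 0.00769), but it did not pass within either slide alone, and its test of PN1 against the later days gave adjusted p = 0.069. Dbp, the D-box activator closest to Tef, behaved differently: it read 6.27, 6.46, 6.83 and 6.25 in Brown Norway and 7.82, 7.97, 7.14 and 7.40 in Lewis, and was lower at all 3 ages, by -1.13, -1.52 and -1.94. Nr1d1, Per2, Per3, Npas2 and Bhlhe40 did not pass. Within the first slide the list median was 0.53 with 2 genes passing as higher, and within the second 0.84 with 6. The hour at which the lungs were taken is not given in the labels, and its part in the result was not tested.

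**Figure D2:**
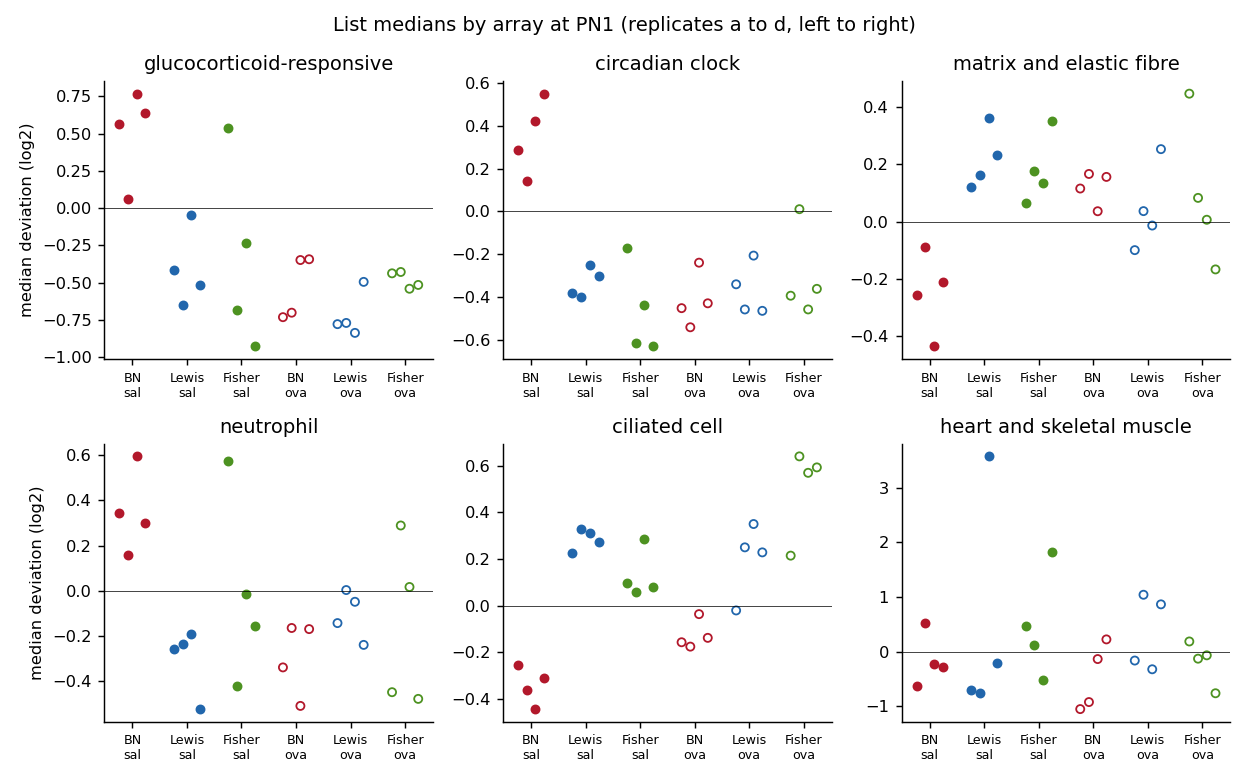
Each point is 1 array at PN1, replicates a to d left to right, and the vertical axis is the median over a list's genes of the log2 deviation from the gene's mean over the 8 saline arrays; filled points are saline (sal) and open points ovalbumin (ova), for Brown Norway (BN), Lewis and Fisher. The 4 Brown Norway saline arrays are above 0 in the glucocorticoid, clock and neutrophil lists and below 0 in the matrix and ciliated cell lists, and Lewis saline c is at 3.58 in the muscle list.

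The promoters of these 2 lists were read from RefSeq on the GRCr8 assembly, 250 bases before to 50 after each gene's start, because the genes moved together. Of the 27 genes of the lists, 24 had a sequence. The palindromic glucocorticoid response element, AGAACA and TGTTCT with 3 free bases between, searched on both strands like the other motifs, was in none of the 24 and in 2 of 27457 promoters (0.00728%). The E-box CACGTG, which BMAL1 and its partner bind, was in 3 of the 24 (Bhlhe40, Dusp1 and Tef) and in 6.65% of all promoters. The ROR element, AAN followed at once by TAGGTCA, through which ROR and REV-ERB receptors act on Bmal1 in mice, was in Bmal1 alone and in 0.222% of all promoters. The cAMP response element TGACGTCA was in Dusp1 alone and in 1.91% of all promoters. A match is only a match of letters in this window. The 3 promoters below are shown because they belong to genes that were higher in Brown Norway and hold a motif, which is in capitals.
Bmal1, GRCr8 chr1:176766078-176766377, plus strand: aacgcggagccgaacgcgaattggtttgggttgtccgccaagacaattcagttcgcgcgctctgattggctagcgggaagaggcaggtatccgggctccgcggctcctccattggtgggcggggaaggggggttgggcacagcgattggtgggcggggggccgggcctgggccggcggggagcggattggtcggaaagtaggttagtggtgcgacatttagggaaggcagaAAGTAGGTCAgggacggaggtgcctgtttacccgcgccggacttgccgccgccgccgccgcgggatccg
Tef, GRCr8 chr7:115206577-115206876, plus strand: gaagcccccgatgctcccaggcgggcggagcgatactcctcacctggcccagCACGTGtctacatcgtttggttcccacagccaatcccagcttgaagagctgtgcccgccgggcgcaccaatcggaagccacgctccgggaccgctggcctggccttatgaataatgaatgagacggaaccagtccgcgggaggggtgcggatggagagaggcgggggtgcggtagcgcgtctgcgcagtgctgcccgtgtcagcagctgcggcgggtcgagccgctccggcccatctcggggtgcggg
Dusp1, GRCr8 chr10:17184603-17184902, plus strand: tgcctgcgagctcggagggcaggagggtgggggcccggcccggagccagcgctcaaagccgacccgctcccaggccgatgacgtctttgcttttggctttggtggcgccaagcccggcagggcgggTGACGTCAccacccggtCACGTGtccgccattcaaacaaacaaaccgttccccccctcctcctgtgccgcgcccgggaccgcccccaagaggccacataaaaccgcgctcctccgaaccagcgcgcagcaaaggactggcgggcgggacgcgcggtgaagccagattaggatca
Capitals mark the ROR element from base 232 to base 241 of Bmal1, the E-box from base 53 to base 58 of Tef, and in Dusp1 the cAMP response element ahead of an E-box that runs from base 144 to base 149.

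Among the genes larger at day 1, those with the highest differences came from several other systems. Gal, the precursor of the neuropeptide galanin, read 9.86, 7.58, 10.20 and 10.35 in Brown Norway and 5.92, 6.49, 7.26 and 7.04 in Lewis. Brown Norway b was far below its group but still above all Lewis arrays, and the difference was 2.82 (SE 0.33, adjusted p = 7.35e-10). At PN7 and PN14 Gal differed by 0.29 and -0.38, and in the ovalbumin pups of PN1 it averaged 6.07 in Brown Norway and 6.43 in Lewis. Esm1, an endothelial proteoglycan induced by VEGF, read 9.83, 10.19, 10.57 and 10.43 in Brown Norway and 8.03, 7.27, 7.66 and 7.79 in Lewis, for a difference of 2.57 (SE 0.43, adjusted p = 3.91e-06) with no overlap. Rasd1, a Ras-like GTPase first found as induced by dexamethasone, was higher by 2.37 (SE 0.36), and Abca1, the cholesterol exporter, by 2.35 (SE 0.25). Neither overlapped between the strains. Cbs, which makes cystathionine from homocysteine, read 10.13, 8.69, 10.43 and 9.88 in Brown Norway and 7.14, 7.23, 7.77 and 7.60 in Lewis. Its difference of 2.35 (SE 0.46, adjusted p = 6.04e-05) had the opposite sign in the ovalbumin pups, -1.17, without passing there. Mlc1, a membrane protein best known from astrocytes, was higher by 2.65 (SE 0.43), and was above background on 4 Brown Norway and 2 Lewis arrays.

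Water channels changed in both directions. Aqp3, the water and glycerol channel of basal airway cells, read 8.71, 8.13, 9.07 and 8.76 in Brown Norway and 6.32, 6.21, 6.64 and 6.50 in Lewis, for a difference of 2.25 (SE 0.29, adjusted p = 1.21e-08). Aqp5, the apical channel of alveolar type 1 cells, read 7.45, 8.65, 7.61 and 8.11 in Brown Norway and 9.92, 9.95, 9.67 and 10.31 in Lewis, for a difference of -2.01 (SE 0.25, adjusted p = 2.91e-09). Neither channel overlapped between the strains, and both passed the test of PN1 against the later days. Aqp1, the endothelial channel, was higher at all ages, by 1.13, 0.73 and 0.65. Of the other alveolar type 1 genes, Rtkn2, Clic5 and Igfbp2 were lower, Hopx was higher, and Ager, Pdpn, Cav1 and Cav2 did not pass. In all, 1 of 12 type 1 genes was higher and 4 lower, Aqp5 among them.

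Genes of neutrophils were higher at day 1 in Brown Norway saline pups, 7 of 14 measured, with 1 lower. The list medians were 0.70 at PN1, -0.38 at PN7 and 0.11 at PN14. Between the ovalbumin pups of PN1, 0 of the 14 were higher and 0 lower, with a list median of -0.12. Il1r2, the decoy receptor for interleukin 1 and also induced by glucocorticoids, read 9.12, 7.99, 9.19 and 9.01 in Brown Norway and 6.67, 6.93, 7.05 and 6.41 in Lewis, for a difference of 2.06 (SE 0.29, adjusted p = 1.09e-07). Ngp, a neutrophil granule protein, read 9.84, 10.14, 9.64 and 9.64 in Brown Norway and 8.40, 8.63, 8.16 and 8.35 in Lewis, for a difference of 1.43 (SE 0.32, adjusted p = 0.000497). Both genes were apart between the strains on every array, and Lcn2, S100a8, Mmp8, Mmp9 and Camp were the other 5. Prtn3, an azurophil granule protease, was lower by -0.51. The count moved with single arrays: it was 4 without Lewis b and 3 without Lewis d, Brown Norway a or Brown Norway c, and the list median was 0.54 within the first slide and 0.86 within the second. Within the first slide 0 of the 14 passed in limma's test, with 2 higher and 1 lower at an unadjusted p under 0.05, and within the second 8 were higher. Prg2, which encodes the major basic protein of eosinophils, was higher by 2.22 (SE 0.38, adjusted p = 7.9e-06), and unlike most genes of its class it was higher in the ovalbumin pups as well, by 1.60 (adjusted p = 0.00292).

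Smaller shifts were seen in 3 further lists. Among 17 immediate early genes, 6 were higher and 1 lower: Klf6 (1.35), Jun (0.77), Dusp1, Nr4a3, Atf3 and Ier2 were higher and Egr2 lower, while Fos, Egr1 and Junb did not pass. Of 22 antioxidant and xenobiotic genes, 8 were higher and 2 lower. Nqo1, the quinone reductase controlled by NRF2, read 12.64, 12.59, 13.06 and 12.80 in Brown Norway and 11.61, 11.62, 11.18 and 11.71 in Lewis. All Brown Norway values were higher, and the difference was 1.24 (SE 0.18, adjusted p = 2.51e-07). Gclc, the catalytic subunit that limits glutathione synthesis, was higher by 0.83 (SE 0.11, adjusted p = 6.22e-08), and Sod3 and Cat, which remove superoxide and peroxide, were the 2 lower genes. Of 10 endothelial genes, 5 were higher and none lower. Vwf, the von Willebrand factor, was higher at all 3 ages, by 1.19, 0.99 and 0.77, and Cldn5, a tight junction protein, was larger at day 1, by 0.77. At PN7 7 of the 10 endothelial genes were higher, and the list medians were 0.18 at PN1, 0.37 at PN7 and 0.18 at PN14. Within the first slide of PN1, 1 immediate early, 4 antioxidant and xenobiotic and 3 endothelial genes passed as higher. Within the second these counts were 4, 10 and 4. Between the ovalbumin pups of PN1, 0, 2 and 2 genes of these 3 lists were higher and 0, 3 and 0 lower. The list medians there were 0.03, -0.11 and 0.08. The capillary, arterial and venous list of 12 genes had 3 higher, the kinase gene Bmx (1.23) among them, and 3 lower, with a median of -0.11. Bnip3, a mitophagy receptor, was higher at every age and more so at PN1, by 2.80, 1.12 and 1.56.

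Matrix genes were lower in Brown Norway at day 1. Of 22 genes of the matrix and elastic fibre list, 13 were lower and none higher in saline pups, and 9 of the 13 were larger at day 1. The list medians were -0.55 at PN1, 0.12 at PN7 and -0.09 at PN14. Between the ovalbumin pups of PN1, 0 of the 22 were lower and 1 higher, with a list median of 0.04. Fbln5, which elastic fibre assembly requires, read 11.54, 12.06, 11.14 and 11.53 in Brown Norway and 12.18, 12.34, 12.93 and 12.24 in Lewis. The groups did not overlap, and the difference was -0.85 (SE 0.18, adjusted p = 0.000159), against 0.18 at PN7 and 0.03 at PN14. Sparc, a collagen-binding glycoprotein, read 13.32, 13.34, 12.92 and 13.06 in Brown Norway and 13.67, 13.82, 14.77 and 14.41 in Lewis, for a difference of -1.01 (SE 0.18, adjusted p = 1.27e-05). Lewis c was the highest for both Fbln5 and Sparc. Fbln1, another fibulin, was lower by -1.0, and Fbn2, Mfap4, Ltbp4, Fbn1, Col1a2 and Emilin1, all parts of microfibrils or collagen, completed the 9. Dpt, which encodes the collagen-binding dermatopontin, read 10.83, 12.17, 10.50 and 10.95 in Brown Norway and 13.03, 12.95, 12.96 and 12.98 in Lewis. Its difference was -1.87 (SE 0.21, adjusted p = 1.04e-10), and in the ovalbumin pups Dpt averaged 13.18 in Brown Norway and 13.15 in Lewis. Eln, Lox, Fn1, Col1a1 and Col3a1 did not pass, so the elastin gene itself was not among those that were lower. Without Lewis c and Brown Norway b, 11 of the list were lower; within the first slide the median was -0.29 with 3 genes passing, and within the second -0.67 with 14.

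Genes of the lung mesenchyme followed the matrix genes. Of 9 pericyte and mesenchyme genes, 5 were lower and 1, Cspg4, higher. Between the ovalbumin pups of PN1, 1 of the 9 was lower and 0 higher, with a list median of -0.03. Meox2, a homeobox factor of mesenchyme, read 7.63, 8.44, 7.36 and 8.15 in Brown Norway and 10.21, 10.05, 9.87 and 9.88 in Lewis. The gap between the groups was wider than either group's range, and the difference was -2.10 (SE 0.28, adjusted p = 1.94e-08), against -0.46 at PN7 and -0.21 at PN14. Fgf10, the mesenchymal growth factor that drives branching, was above background on no Brown Norway array and on all 4 Lewis arrays, which puts it at least 1.49-fold lower in Brown Norway. Wnt5a, a non-canonical Wnt ligand, was lower by -1.29 (SE 0.25, adjusted p = 7.22e-05). Plin2, the lipid droplet coat that marks lipofibroblasts, read 11.24, 12.20, 11.31 and 11.52 in Brown Norway and 12.85, 12.81, 12.36 and 12.79 in Lewis, for a difference of -1.13 (SE 0.16, adjusted p = 5.96e-08). These 4 genes were all larger at day 1. Of 11 smooth muscle and myofibroblast genes, 7 were lower, Tagln (-0.82) and Actg2 (-0.93) among them, but both overlapped between the strains and the count fell to 4 without Lewis c, without Brown Norway c or without Brown Norway d. Within the first slide 0 of the 11 passed in limma's test, with 1 higher and 3 lower at an unadjusted p under 0.05, and within the second 6 were lower. Between the ovalbumin pups of PN1, 1 of the 11 was lower and 0 higher, with a list median of 0.07. Growth factor genes of lung development were lower in 8 of 35 and higher in 3; Vegfa, Bmp4, Nrp1 and Fgfr4 were in the lower group and Bmp2 in the higher.

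Ciliated cell genes were lower in 6 of 9, with none higher, and the list medians were -0.63 at PN1, -0.34 at PN7 and 0.08 at PN14. Enkur, a protein of the ciliary axoneme, read 8.29, 8.14, 7.84 and 8.08 in Brown Norway and 8.97, 8.97, 8.91 and 9.14 in Lewis, for a difference of -0.91 (SE 0.12, adjusted p = 3.44e-08). Dynlrb2, a dynein light chain, read 9.97, 9.96, 9.97 and 10.07 in Brown Norway and 10.90, 10.89, 10.83 and 10.80 in Lewis and was lower by -0.86 (SE 0.15, adjusted p = 5.54e-06). It was lower at PN7 too, by -1.0, and not at PN14, where the difference was 0.15. In the ovalbumin pups of PN1, 3 of the 9 genes were lower and the list median was -0.34. In the saline pups of PN1, 2 of the 9 passed as lower within the first slide and 5 within the second. The list medians there were -0.65 and -0.60. The signalling genes Cxcl12, which draws CXCR4-bearing cells, and Il33, an alarmin of epithelium and endothelium, were lower by -1.11 (SE 0.17, adjusted p = 9.63e-07) and -1.10 (SE 0.18, adjusted p = 3.86e-06) at PN1. In the ovalbumin pups the same differences were -0.16 and 0.03.

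**Figure D3:**
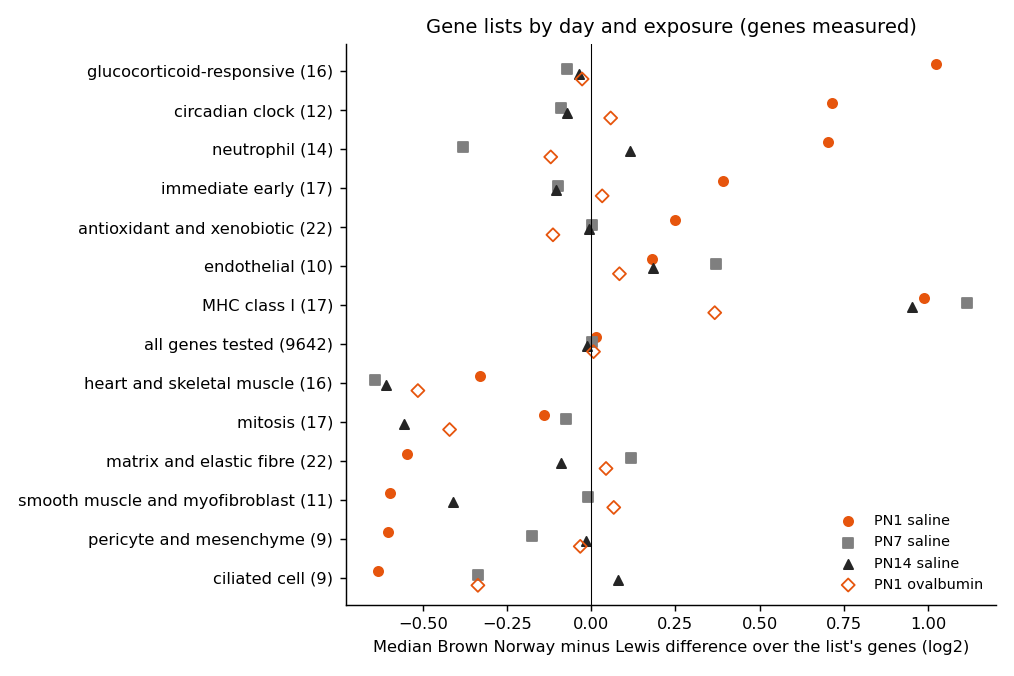
The horizontal axis is the median log2 difference, Brown Norway minus Lewis, over the measured genes of each list, whose number stands in brackets, at PN1, PN7 and PN14 in saline pups and at PN1 in ovalbumin pups (open diamonds). The glucocorticoid list is at 1.02 at PN1, -0.07 at PN7, -0.04 at PN14 and -0.03 in the PN1 ovalbumin pups, whereas the MHC class I list is at 0.99, 1.12 and 0.95 in the saline pups of the 3 ages and at 0.37 in the PN1 ovalbumin pups.

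Cell division genes mostly did not pass: 0 of 17 mitosis genes did so in limma's test at PN1, and 0 at an unadjusted p under 0.05, while 3 of 17 DNA replication genes were lower and none higher. The liver, keratin and muscle lists, of 11, 9 and 16 measured genes, likewise had 0 genes passing, and 0 at an unadjusted p under 0.05.

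Among the named genes larger at day 1, the lowest differences belonged to the major urinary proteins, small carriers of pheromones that are known mainly from rat liver and glands. All 5 measured genes of the urinary and odorant-binding protein list were lower in Brown Norway at PN1. Mup5 read 5.69, 5.24, 5.06 and 5.89 in Brown Norway and 10.21, 10.24, 10.60 and 10.16 in Lewis, a difference of -4.83 (SE 0.41, adjusted p = 7.14e-15), and only 2 Brown Norway arrays were above background. Mup4, Mup4l4, Mup4l3 and Obp3 were above background on all 4 Lewis arrays and on none of Brown Norway, so only bounds can be given. Mup4 was at least 7.44-fold lower, Mup4l4 at least 7.84-fold, Mup4l3 at least 5.33-fold and Obp3 at least 3.08-fold lower in Brown Norway. Each bound sets the Lewis mean against the lowest signal that is well above background. These genes are near copies of each other, so a probe may read more than 1 of them, and the liver genes Alb and Ahsg stayed at or near background, above it on 0 Brown Norway arrays and on 1 and 3 Lewis arrays.

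The urinary protein difference was also present in the ovalbumin pups of PN1, unlike most day 1 differences: Mup5 averaged 4.73 ± 0.09 in Brown Norway, where no array was above background, and 10.26 ± 0.60 in Lewis (SD, n = 4 each). At PN7 in saline pups Mup5 averaged 4.94 ± 0.39 in Brown Norway and 6.0 ± 1.06 in Lewis, and at PN14 4.81 ± 0.23 in Brown Norway and 6.77 ± 0.33 in Lewis, and no Brown Norway array of these 2 ages was above background. At PN14 Mup5 was at least 2.11-fold lower in Brown Norway (adjusted p = 0.000438). Lewis pups of PN7 averaged 8.08 ± 0.37 after ovalbumin, a difference from saline that was not tested. Fisher pups of PN1 had Mup4 at 7.12 ± 0.42 after ovalbumin and 4.94 ± 0.10 after saline. At PN1 the strains did not overlap for Mup5 under either exposure.

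**Figure D4:**
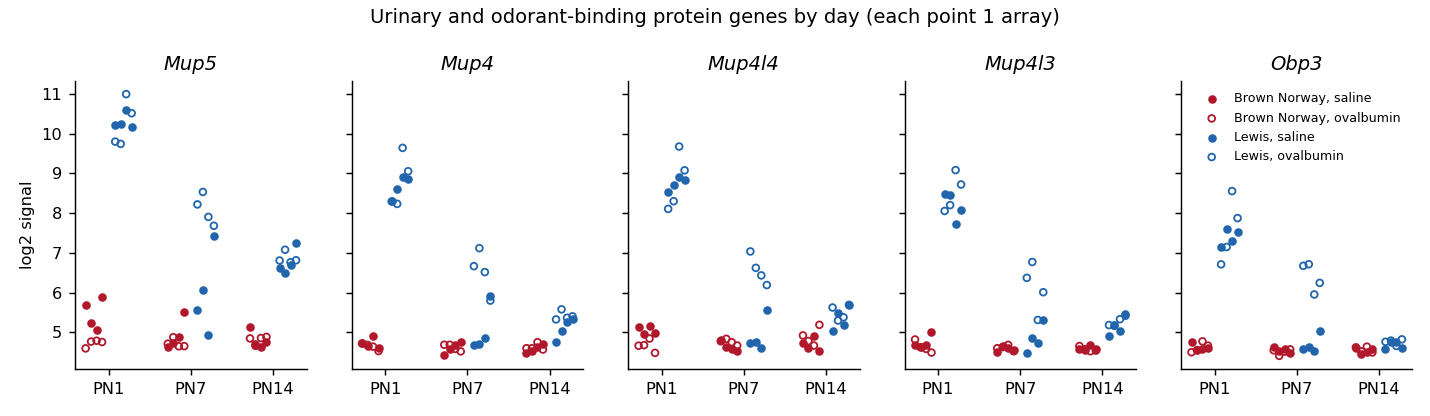
Each point is 1 array and the vertical axis is the log2 signal of 5 urinary and odorant-binding protein genes at PN1, PN7 and PN14, Brown Norway left of Lewis, with filled points for saline and open points for ovalbumin. At PN1 the Lewis arrays of Mup5 lie between 9.74 and 10.99 over both exposures and the Brown Norway arrays between 4.60 and 5.89.

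Of the probes that passed at PN1, 4.7% also passed at PN7 or PN14 in the other direction. Abcb1b, a drug efflux pump, was higher by 1.07 at PN1 and lower by -1.69 at PN14. Fem1b, a substrate receptor of a ubiquitin ligase, read 10.35, 10.96, 11.37 and 11.36 in Brown Norway and 9.55, 9.33, 9.22 and 9.79 in Lewis at PN1, a difference of 1.54 (SE 0.25, adjusted p = 2.72e-06) without overlap. At PN7 its difference was -0.92 (adjusted p = 0.00732). Sik1, a salt-inducible kinase, was higher by 1.48 at PN1 and lower by -0.83 at PN7, and Errfi1 was higher by 1.10 at PN1 and lower by -1.10 at PN7. Fcnb, a ficolin of myeloid cells, went the other way, lower by -1.22 at PN1 and higher by 1.02 at PN14.

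Genes of the MHC were among the differences of every day. Of 17 class I genes measured, 10 were higher and 2 lower at PN1, and 8 were higher at all 3 ages. RT1-A1, a classical class I gene, read 13.18, 13.36, 13.08 and 13.20 in Brown Norway and 10.81, 10.83, 11.09 and 11.03 in Lewis. The strains were apart by 2.27 (SE 0.13, adjusted p = 3.18e-22) at PN1, by 2.22 at PN7 and by 2.22 at PN14, and by 2.42 in the ovalbumin pups of PN1. RT1-CE16 and RT1-A2 were above background on every Brown Norway array and on no Lewis array, and were at least 41.2-fold and at least 9.14-fold higher in Brown Norway. RT1-A3 was higher by 2.85, 2.52 and 2.93. B2m, the shared light chain, was at -0.02 at PN1, and Tapbp, which loads peptide, was lower by -0.62. Class II genes split: RT1-Ba was higher at every age, by 1.45, 1.68 and 1.97, and RT1-Db1 lower, by -1.39, -1.70 and -1.15, with Cd74 and Ciita not passing. RT1 genes are polymorphic and alike, so a probe may fit the allele of 1 strain better or read several genes. The probe sequences were not used here, and the part of such mismatches in any difference of every day was not tested.

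Of the 379 probes of every day, 67 (17.7%), those of the MHC included, could be given only as a fold bound at PN1, because 1 of the strains was above background on no array. Plekhf2, an endosomal protein, read 10.97, 11.15, 11.04 and 11 in Brown Norway and 5.41, 5.14, 4.60 and 4.73 in Lewis, with no Lewis array above background, and was at least 44.2-fold higher in Brown Norway. Echdc2, a mitochondrial enoyl-CoA hydratase family member, was the reverse: it read 4.77, 4.60, 4.51 and 4.49 in Brown Norway and 9.98, 10.06, 10.02 and 10.31 in Lewis, at least 20-fold lower in Brown Norway, where no array was above background. Rpl30, a protein of the large ribosomal subunit, was higher by 3.94, 3.97 and 4.48 at the 3 ages, while its list of 35 cytosolic ribosomal proteins had 4 higher and none lower at PN1 and a median of 0.03. Ankra2 (4.23), Ly6i (4.18), Pxmp4 (3.85) and Mrpl18 (3.73) were the other genes highest at PN1 among those of every day that were picked. Ly6i, a member of the Ly6 family, differed more at PN1 than later, by 1.52 (adjusted p = 8.23e-05).

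On the lower side, Ifi47, an interferon-induced GTPase, was at least 6.54-fold lower, Plpp1, a lipid phosphatase, at least 6.27-fold, and Lst1, a myeloid protein encoded in the MHC, at least 3.53-fold lower in Brown Norway, each above background on no Brown Norway array and on 4 Lewis arrays. Hbb-b1, a beta globin gene, read 12.52, 11.84, 11.03 and 12.45 in Brown Norway and 15.54, 15.64, 14.84 and 15.43 in Lewis. Its difference was -3.40 (SE 0.40, adjusted p = 1.04e-09), while Hbb, the other beta globin listed, was at -0.03 and the globin and erythroid list had 1 gene higher and 1 lower of 13. Spp1, the secreted phosphoprotein osteopontin, was lower by -1.94, -2.52 and -2.54. Mtmr1, a lipid phosphatase of the myotubularin family, was at least 2.61-fold lower by its brighter probe, but a second probe differed by 0.03 (adjusted p = 0.933), averaging 5.36 in Brown Norway and 5.33 in Lewis. Of the 8 genes of every day with a second probe, 5 had the same sign there and 2 passed the same way. Of 20 further probes for genes larger at day 1, 18 had the same sign and 8 passed.

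**Figure D5:**
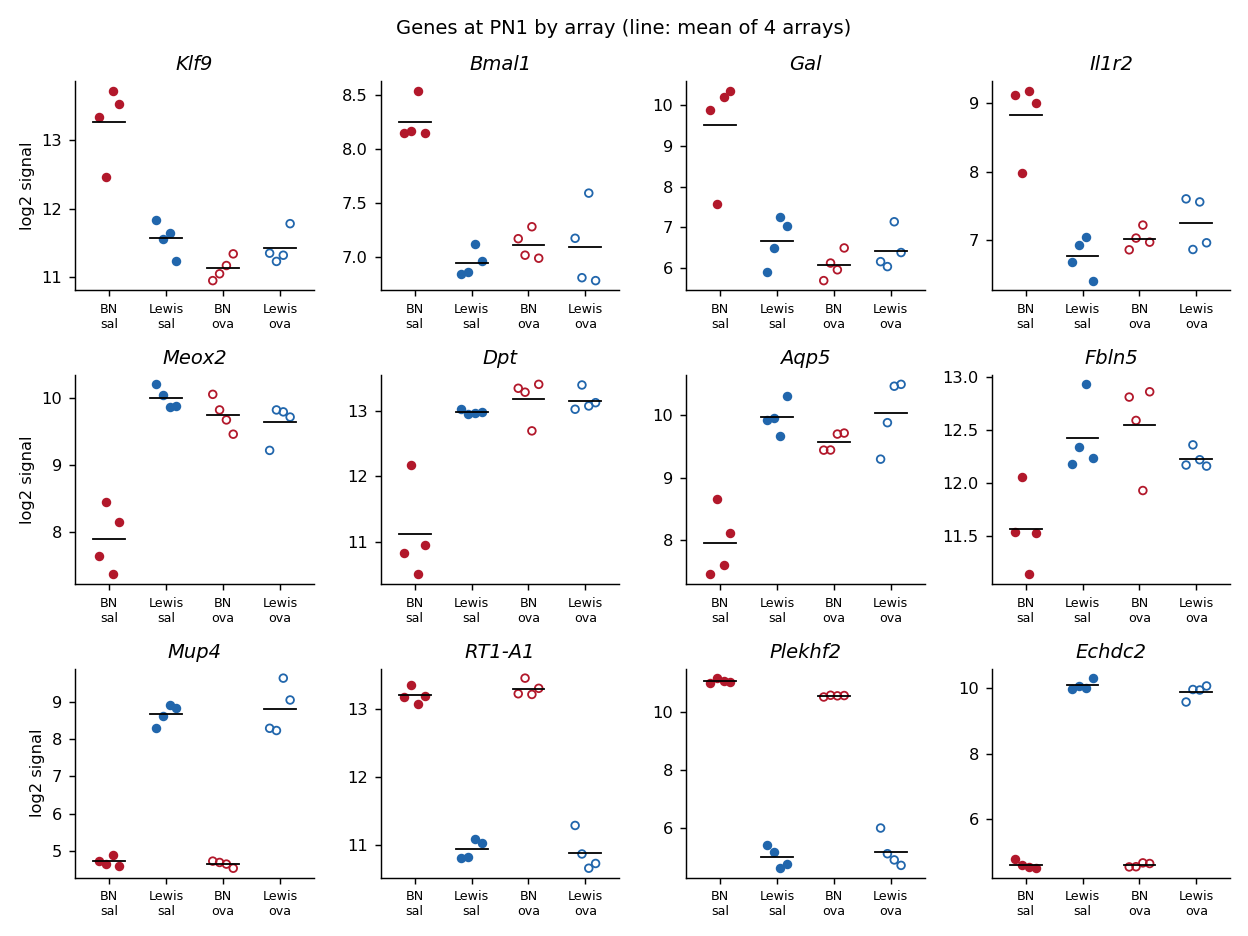
Each point is 1 array of PN1 and the vertical axis is the log2 signal, with a line at the mean of 4 arrays; filled points are saline (sal), open points ovalbumin (ova), and Brown Norway (BN) stands left of Lewis. All 12 genes were picked from those that passed at PN1, and in each the strains are apart in saline. In ovalbumin pups the mean difference is near 0 for Klf9 (-0.30) and Dpt (0.03) and 2.42 for RT1-A1. Mup4, Plekhf2 and Echdc2 keep 1 strain at or near background.

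Both PN1 slides carried both strains, so the PN1 differences of the classes could be read within each. The sign of the difference was the same on the 2 slides for 379 of 379 probes of every day and for 1644 of 1649 larger at day 1, probes that the pooled arrays had chosen. The median size of the day 1 class was not the same on the slides, 0.58 on the first and 0.89 on the second, against 1.10 and 1.09 for the differences of every day. With 2 arrays per strain, 739 probes passed at PN1 within the first slide and 4005 within the second. The later ages were not balanced in this way. At PN7 and at PN14 the Brown Norway saline arrays shared a single slide, which held only some of the Lewis saline arrays. With slide as a fixed term, 354 probes were of every day and 1561 larger at day 1.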

How the data were processed

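Whole lung RNA was measured on Illumina rat bead arrays. The authors deposited, per the file headers, each probe's signal intensity and detection p-value before normalization, and log2 values, which equalled quantile-normalized log2 raw signals within 5e-05; the submitters' processing notes name lumi. The 142 columns of bead spread and bead number were not used. The intensities were corrected and normalized with limma 3.58.1 (neqc, offset 16) in R 4.3.3. Probes with detection p under 0.01 on at least 3 of 71 arrays (14019) entered a fit of 18 group means (eBayes with trend, 53 residual degrees of freedom), with Benjamini-Hochberg adjustment over all probes at 0.05. A gene takes its probe of highest mean. In the annotation given, 13793 of the 22523 probes on the array had 1 symbol. Of the 14019 probes tested, 9848 had a symbol, and the others lie outside all gene counts and lists. "Every day" means called with the same sign at 3 ages, and "larger at day 1" called at PN1, not of every day, and with PN1 minus the mean of PN7 and PN14 called in the same direction. The 42 gene lists (809 genes, 612 measured) hold textbook markers; members and lists were chosen with earlier results of these data known. Genes named are the 10 highest and 10 lowest larger at day 1, the 8 highest and lowest of every day, up to 6 that turn over with age, up to 4 called members of each list and lung markers, less some left out, and further list members named by symbol. Fits were tested on simulated data. Alternatives were the deposited log2 values, other filters, no background correction, the groups compared alone, slide as a block or alone, a replicate block and left-out arrays.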

Additional observations from a re-analysis of the deposited data

Results flagged for a closer look

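A set of 81 genes, most but not all of them named above, was looked at array by array. Their Brown Norway and Lewis arrays gave 162 groups of 4 at PN1. In 8 of these groups a single array lay apart from the other 3 by Dixon's test. That is about as many as the 1 in 20 that chance gives. In Brown Norway, replicate b was low for Mlc1 (8.03) and Il1r2 (7.99), replicate c was high for Bmal1 (8.54) and Lst1 (5.47), and replicate d was high for Mup4l3 (5.02) and Dynlrb2 (10.07). In Lewis, replicate c was low for Plin2 (12.36) and Tagln (11.63). Lewis c was also the array with high skeletal muscle transcripts.

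The strain difference at PN1 differed from the mean of the later differences, by the contrast tested in the fit, for 51 of these 81 genes. The difference of differences, on the log2 scale, was above 0 for Gal (2.87), Esm1 (2.71), Rasd1 (2.27), Cbs (2.73), Abca1 (1.99), Aqp3 (2.19), Prg2 (1.64), Mlc1 (2.49), Plekhf2 (0.79), Ly6i (1.52), Abcb1b (2.11), Fem1b (2.21), Sik1 (1.92), Errfi1 (1.72), Klf9 (1.83), Tsc22d3 (1.17), Nfkbia (0.96), Ddit4 (1.73), Bmal1 (1.02), Cry1 (0.87), Nfil3 (1.55), Il1r2 (2.15), Ngp (1.62), Klf6 (1.07), Jun (0.86), Dusp1 (1.28), Nqo1 (1.41), Gclc (0.85), Bmx (1.08), Bnip3 (1.46) and Fkbp5 (1.57). It was below 0 for Mup5 (-3.32), Mup4 (-3.48), Mup4l4 (-3.21), Mup4l3 (-3.03), Obp3 (-2.63), Saa4 (-1.63), Meox2 (-1.77), Aqp5 (-1.72), Dpt (-1.61), RT1-A2 (-1.54), Fcnb (-1.61), Sparc (-0.64), Fbln1 (-0.85), Fbln5 (-0.96), Fgf10 (-1.22), Wnt5a (-1.42), Plin2 (-0.90), Enkur (-0.87), Cxcl12 (-0.97) and Il33 (-1.08). Many of these genes were picked because this contrast passed, so the values describe their size. Mup4, Mup4l4, Mup4l3, Obp3 and Fgf10 were above background on no Brown Norway saline array at any age, nor on any Lewis saline array later than PN1 apart from Mup4l4 at PN14, and Plekhf2 and RT1-A2 on no Lewis saline array at any age. For these genes the values here and in the next paragraph depend on the background level and are no measure of size. The same holds for the later ages of Mup5 and Mlc1 and, in Brown Norway, of Cbs, and for Saa4 in Brown Norway at PN14.

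The strain difference at PN1 also differed between saline and ovalbumin pups for 34 of the 81 genes. The saline difference minus the ovalbumin difference was above 0 for Gal (3.18), Rasd1 (2.17), Cbs (3.52), Abca1 (1.98), Aqp3 (1.83), Mlc1 (2.40), Plekhf2 (0.70), Abcb1b (1.68), Fem1b (1.85), Sik1 (1.53), Errfi1 (1.18), Klf9 (1.99), Tsc22d3 (1.10), Ddit4 (2.15), Bmal1 (1.28), Cry1 (0.82), Nfil3 (1.19), Il1r2 (2.29), Nqo1 (1.30), Gclc (0.69), Bmx (0.96) and Bnip3 (1.41). It was below 0 for Meox2 (-2.22), Aqp5 (-1.55), Dpt (-1.89), Qrfpr (-1.69), Fbln1 (-0.88), Fbln5 (-1.17), Wnt5a (-1.54), Plin2 (-0.99), Tagln (-1.19), Actg2 (-1.03), Cxcl12 (-0.95) and Il33 (-1.14). The labels give no litter, so exposure and litter cannot be told apart here.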

How the results depend on the processing

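Under every alternative run, 0 of those of the 81 genes that passed at PN1 turned direction there. Of those that had not passed, Eln (-0.27) was at 0.04 within the first slide, and Scgb1a1 (0.02) was below 0 under 5 alternatives, at -0.06 without Lewis c and Brown Norway b. Among the 81 genes, 1511 gene values stayed on their side of the threshold and 1 (Sftpc, within the second slide) passed anew. Another 27 no longer passed, and 23 of the 27 came within the first slide. The deposited log2 values and the values without background correction are the same within 5e-05. They were run as separate alternatives, so the counts of alternatives and gene values here hold the same data more than once. The PN1 count was 739 within the first slide, where each strain has 2 arrays, and the calls over all gene lists were 74 there. The PN7 count was 1526 when only the groups compared were fitted. Without Brown Norway PN1 replicate c, 1433 probes differed between PN1 and the later days and 1055 were larger at day 1. Asking for at least 1 on the log2 scale left 719 probes at PN1 and 141 of every day, and testing PN1 against PN7 and PN14 separately left 655 larger at day 1. Leaving out 1 array at a time gave 2852 to 3567 probes at PN1, 1353 to 2754 at PN7, 646 to 713 at PN14, 1433 to 2344 for PN1 against later, 342 to 381 of every day, 1055 to 1714 larger at day 1 and 164 to 205 list calls. Smooth muscle genes lower at PN1 numbered 4 when only the groups compared were fitted. The replicate letters do not pair the strains: deviations of the same letter correlated between -0.0824 and 0.0683, and with the letter as a replicate block 2842 probes passed at PN1. With slide as a random block the count was 3851. Why these counts moved was not tested. Precision is limited by 4 arrays a group, and of probes near background only bounds are known.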
